A study of Mus musculus with 6 samples.

Results

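The Sμ bait segment is the stretch of switch region that lies between the sequencing primer and the junction in every read of a translocation library, and its mutations were described here in reads that join the bait to another place within Sμ. All reads listed for bait mutation were taken, 2246 in total, of the 2277 Sμ junctions and the 5608 junctions counted by the authors in 6 libraries. They comprised 532 and 281 reads in ATM RX/RX cells, 187 and 875 in ATM KO cells, and 234 and 137 in wild type. High-throughput genome-wide translocation sequencing (HTGTS) extends a primer across a break and reads what the broken end was joined to. The groups were B cells homozygous for the truncating RX allele of Atm (Atm RX/RX), B cells lacking ATM (Atm-/-) and wild-type B cells (Atm+/+), with 2 libraries each. All mice were of the 129 strain and, per the series' design text, carried a preassembled IgH. CD43-negative spleen B cells were grown for 4 days with anti-CD40 at 1 ng/mL and IL-4 at 20 ng/mL. Ages, and whether the libraries of a group came from separate animals, are not given in the sources used here, so the spread between libraries may be technical. The files hold DNA junctions only, so neither the cell type nor the Atm genotype could be checked against expression.

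Switch regions are mutated and broken by activation-induced cytidine deaminase (AID), which converts cytosine to uracil, preferentially in AGCT and related motifs. Base excision repair and mismatch repair process the uracils, and error-prone synthesis during that repair also leaves mutations at A and T. Broken ends are then joined, and ATM is the kinase that signals such breaks and helps hold the ends for joining. A change in a bait read can come from these processes or from PCR and sequencing.

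The bait matched the reference mouse genome (mm9) at 1 place, on the minus strand of chromosome 12, at chr12:114664801-114664909. This is outside any annotated gene, 3860 bp upstream of the start of Ighm, the gene of the IgM constant region, which is transcribed in the same direction as the reads. The most frequent base of the reads equalled mm9 at all 257 positions covered, so no position below differs between the 129 reads and the reference. The segment is shown from the 5′ end of the primer to the end of the AflII site, whose cleavage removes unrearranged product, with the 10 positions that held the most substituted reads in capitals. Positions are counted from 1 at the primer's 5′ end.

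Sμ bait, positions 1 to 109: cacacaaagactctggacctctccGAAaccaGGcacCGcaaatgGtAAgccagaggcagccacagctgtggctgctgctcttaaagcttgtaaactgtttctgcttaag

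The primer takes up positions 1 to 21, and changes were counted from position 22 on. The adjoining A bases at positions 47 and 48 held the most changes. The windows below (positions 38 to 57, chr12:114664853-114664872) are shown because all 3 replacement bases were found at both positions. Capitals mark the pair in the reference and the substituted base in the variants.

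reference window: gcaaatggtAAgccagaggc

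A47C, 13 reads: gcaaatggtCagccagaggc

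A47G, 10 reads: gcaaatggtGagccagaggc

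A47T, 9 reads: gcaaatggtTagccagaggc

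A48C, 14 reads: gcaaatggtaCgccagaggc

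A48G, 10 reads: gcaaatggtaGgccagaggc

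A48T, 11 reads: gcaaatggtaTgccagaggc

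Most bait reads carried no change in any genotype. Counting each substitution, each listed insertion and each listed deletion as 1 change, 2016 of 2246 reads had none, 200 had 1 and 30 had 2 or more. Unchanged reads made up 88.9% and 90.4% in ATM RX/RX cells, 90.9% and 90.9% in ATM KO cells, and 86.8% and 88.3% in wild type. Both mutants thus lay above both wild-type libraries, by 2.11 percentage points for ATM RX/RX (89.7% ± 1.05 against 87.5% ± 1.11; SD, n = 2 each) and by 3.35 points for ATM KO (90.9% ± 0.0367 against 87.5% ± 1.11; SD, n = 2 each). The exact permutation p was 0.3333 for each (two-sided), the smallest that 2 against 2 libraries allow, so 0.05 was out of reach in this design. The difference of ATM RX/RX from wild type was 1.33 points without wild-type replicate 1 and 1.37 points without ATM RX/RX replicate 2.

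Reads with 1 change made up 9.40% and 8.54% in ATM RX/RX cells, 7.49% and 8.46% in ATM KO cells, and 10.7% and 9.49% in wild type. Reads with 2 or more changes were 9 and 3 in ATM RX/RX cells, 3 and 6 in ATM KO cells, and 6 and 3 in wild type. As shares these were 1.69% and 1.07% in ATM RX/RX cells, 1.60% and 0.686% in ATM KO cells, and 2.56% and 2.19% in wild type. Wild type was the highest group in both classes, with no overlap with either mutant and an exact permutation p of 0.3333 for each comparison. The counts behind the class of 2 or more are small: the exact Clopper-Pearson 95% interval was 0.776% to 3.19% in ATM RX/RX replicate 1, 0.252% to 1.49% in ATM KO replicate 2 and 0.947% to 5.50% in wild-type replicate 1. These intervals cover counting error only and not the spread between libraries. No junction was repeated within a library, so each read counted was a distinct junction. ATM RX/RX and ATM KO overlapped in this class (exact permutation p = 0.6667).

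Libraries of different genotypes were also compared singly in the share of reads with any change, by the authors' counts and by a recount of the changes from the alignments, and in the share with 2 or more by the authors' counts. Fisher's exact test passed for 0 of 36 tests after Benjamini-Hochberg adjustment (lowest adjusted p = 0.718). It had an unadjusted p under 0.05 in 1 test, for 2 or more changes between ATM KO replicate 2 and wild-type replicate 1 (unadjusted p = 0.0244). These tests compare libraries, not genotypes.

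Substitutions were the bulk of the changes. The authors listed 282 substitutions in 89456 bait bases, against 23 reads with an insertion and 4 with a deletion. The substitution rate was 34.8 and 33.0 per 10000 bait bases in ATM RX/RX cells, 31.9 and 24.8 in ATM KO cells, and 46.5 and 34.0 in wild type. ATM RX/RX replicate 1 lay just above the lower wild-type library, while both ATM KO libraries lay below both wild-type libraries. The means were 33.9 ± 1.26 in ATM RX/RX and 40.2 ± 8.81 in wild type (SD, n = 2 each), a difference of -6.32 that about equals the pooled SD of 6.29 (exact permutation p = 0.6667). ATM KO averaged 28.3 ± 4.98 and wild type 40.2 ± 8.81 (SD, n = 2 each), a difference of -11.9 (exact permutation p = 0.3333). ATM RX/RX was above ATM KO by 5.58 with no overlap (exact permutation p = 0.3333), and leaving out 1 ATM KO library at a time gave 2.05 (replicate 2 left out) and 9.10 (replicate 1 left out). Without wild-type replicate 1 the difference from wild type was -0.0929 for ATM RX/RX and -5.67 for ATM KO.

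The rates of listed insertions did not separate the genotypes. Insertions were listed in 7 and 2 reads of ATM RX/RX, 2 and 7 of ATM KO, and 5 and 0 of wild type. The mean rate was 2.52 ± 1.10 per 10000 bait bases in ATM RX/RX, 2.38 ± 0.547 in ATM KO and 2.83 ± 4.01 in wild type (SD, n = 2 each), with an exact permutation p of 1 for each comparison. A count of 0 in wild-type replicate 2 allows a rate of up to 5.37 per 10000. Deletions were listed in 0 and 1 reads of ATM RX/RX, 2 and 0 of ATM KO, and 1 and 0 of wild type.

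The alignments of the same reads gave other numbers for some of these changes. Of the 23 reads listed with an insertion, 21 had bait alignments of equal length on read and genome. Such alignments hold no net insertion, though an insertion offset by a deletion would not show. Of those 21 reads, 7 were listed with 6 to 8 substitutions each, 46 in all, where the aligned bases differed from the bait at 8 positions in total. In 6 of these 7 reads the only difference was a single base, such as A31G, A47T, A48T or C60T. Most of the others, 13 of the 21, were listed with fewer substitutions than their alignment held. The remaining 2205 of 2226 gap-free reads gave the same count both ways. All 4 listed deletions were 1 base shorter than the gap in the alignment. The gaps were 16 bases in ATM RX/RX replicate 2 (positions 48 to 63), 6 bases in 2 reads of ATM KO replicate 1 (positions 57 to 62 in both) and 12 bases in wild-type replicate 1 (positions 56 to 67).

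Substitutions were therefore also recounted by comparing each gap-free bait read with the bait base by base. The recount found 254 substitutions in 89733 bases, 2 reads with an insertion and 5 with a deletion after the primer. Its rates were 32.0 and 23.5 per 10000 bases in ATM RX/RX cells, 23.6 and 23.3 in ATM KO cells, and 46.2 and 33.7 in wild type. All 4 mutant libraries now lay below both wild-type libraries. The difference from wild type was -12.2 for ATM RX/RX (27.7 ± 6.01 against 39.9 ± 8.83; SD, n = 2 each) and -16.5 for ATM KO (23.4 ± 0.234 against 39.9 ± 8.83; SD, n = 2 each), with an exact permutation p of 0.3333 for each. ATM RX/RX and ATM KO overlapped (exact permutation p = 0.6667). By the recount, the share of reads with 2 or more changes was 1.13% and 0.356% in ATM RX/RX cells, 1.07% and 0.571% in ATM KO cells, and 2.56% and 2.19% in wild type.

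As a background measured in the same reads, mismatches inside the primer stretch, which is copied from the primer and not from the cell, ran at 4.53 and 5.15 per 10000 bases in ATM RX/RX cells, 0 and 7.14 in ATM KO cells, and 2.04 and 3.48 in wild type. Every library's bait rate was above its own primer rate. The rate of 0 in ATM KO replicate 1 rests on 3864 bases. The primer stretch holds other bases than the bait, so its rate is a guide only. Being copied from the primer, it also need not hold PCR errors of the kind made in the bait. The comparison therefore does not measure that part of the background.

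**Figure D1:**
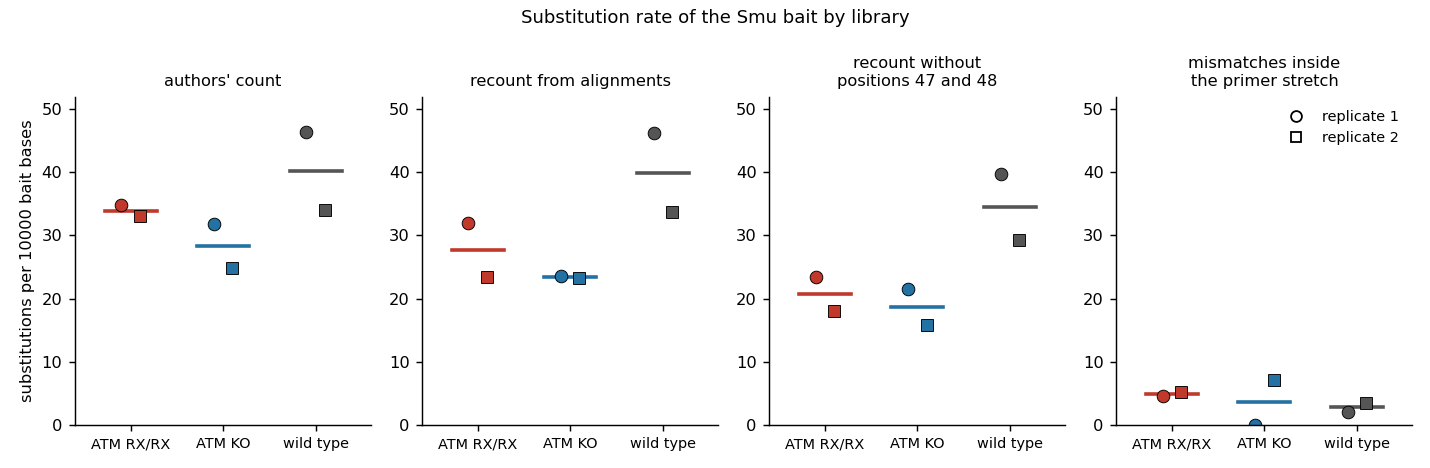
Substitutions per 10000 bait bases in each library (circle, replicate 1; square, replicate 2; line, mean of 2) as counted by the authors, as recounted from the alignments, as recounted without positions 47 and 48, and for mismatches inside the primer. Wild type is highest in the first 3 panels, ATM RX/RX replicate 1 reaches the lower wild-type library only in the authors' count (34.8 against 34.0), and the primer stretch stays at 7.14 or below.

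Changes were spread over the bait but concentrated on the pair at positions 47 and 48. Of 88 positions after the primer in the printed segment, 58 had a substituted read, and the 10 named positions together held 135 of the 254 recounted substitutions (53.1%). Position 48 was substituted in 35 of 1589 reads and position 47 in 32 of 1617, or 2.20% and 1.98%, against a median of 0.132% over the other positions. The next position by count, 27, had 13 substituted reads. Coverage fell from 2226 reads at position 22 to 68 at the start of the AflII site. A ranking by count therefore favours positions near the primer, and the named positions are not those of highest rate. The pair held 26.4% of all substitutions on 3.57% of the bases.

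At the pair the genotypes overlapped. The pair was substituted at 265 and 177 per 10000 bases in ATM RX/RX cells, 77.8 and 217 in ATM KO cells, and 219 and 160 in wild type. These values stand for 20 and 7 reads in ATM RX/RX cells, 2 and 28 in ATM KO cells, and 7 and 3 in wild type. The mean was 221 ± 62.3 in ATM RX/RX, 147 ± 98.1 in ATM KO and 190 ± 41.2 in wild type (SD, n = 2 each), with an exact permutation p of 0.6667 for each pair of genotypes. In all 6 libraries the pair was above the rest of the bait, by 161 per 10000 on average (exact sign-flip permutation p = 0.03125, the smallest 6 libraries allow; 0.172 after adjustment over the 11 within-library comparisons). The pair was picked out for its count, so that test restates the choice.

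The substituted reads at the pair came from 67 different junctions. No junction was repeated within a library, so that count was fixed beforehand. No read was changed at both positions, which says little at shares of 2.20% and 1.98%. Bait alignments of the substituted reads ended 2 to 51 bases beyond the changed base (median 16). The prey alignment reached the changed base in 2 of these reads. C replaced the A in 27 reads, G in 20 and T in 20.

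Because the pair has the same place in every read (cycles 54 and 55), mismatches were also counted there in the prey, whose sequence differs from read to read. Against the consensus of the prey reads, cycles 54 and 55 had 26 mismatches in 2247 bases, or 116 per 10000 (exact Clopper-Pearson 95% interval 75.7 to 169), and the 10 cycles on either side had 49.5 (40.8 to 59.5). At prey A bases the values were 49.9 per 10000 (10.3 to 145) at cycles 54 and 55 and 41.0 (25.4 to 62.6) beside them. The prey thus also had more mismatches at these cycles, chiefly at C (240 per 10000) and G (133). The bait pair had 209 per 10000 over all libraries. The part of the sequencing cycle in the pair's rate was not tested further.

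Outside the pair, wild type had the highest rates. They were 23.4 and 18.0 per 10000 bases in ATM RX/RX cells, 21.6 and 15.9 in ATM KO cells, and 39.7 and 29.4 in wild type. The means were 20.7 ± 3.81 in ATM RX/RX, 18.7 ± 4.02 in ATM KO and 34.5 ± 7.34 in wild type (SD, n = 2 each). The difference from wild type was -13.8 for ATM RX/RX and -15.8 for ATM KO, against pooled SDs of 5.85 and 5.92, with an exact permutation p of 0.3333 for each. The mutants overlapped each other (exact permutation p = 0.6667). Correspondingly, the pair made up 29.4% and 25.9% of substitutions in ATM RX/RX cells, 11.8% and 34.1% in ATM KO cells, and 17.1% and 15.8% in wild type.

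Of the other named positions, 27 (A) was changed in 6 and 1 reads of ATM RX/RX, 2 and 0 of ATM KO, and 2 and 2 of wild type, with C as the new base in 9 of 13. Position 33 (G) was changed in 11 reads and position 37 (C) in 11, of which 7 became A. Position 45 (G) was changed in 1 and 1 reads of ATM RX/RX, 1 and 0 of ATM KO, and 4 and 0 of wild type. Positions 32, 38, 25 and 26 had 6 or 7 substituted reads each, and at position 25 all 6 were G-to-A changes. The last places were tied, since 5 positions had 6 reads. Apart from the pair, no named position had more than 6 substituted reads in a library.

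**Figure D2:**
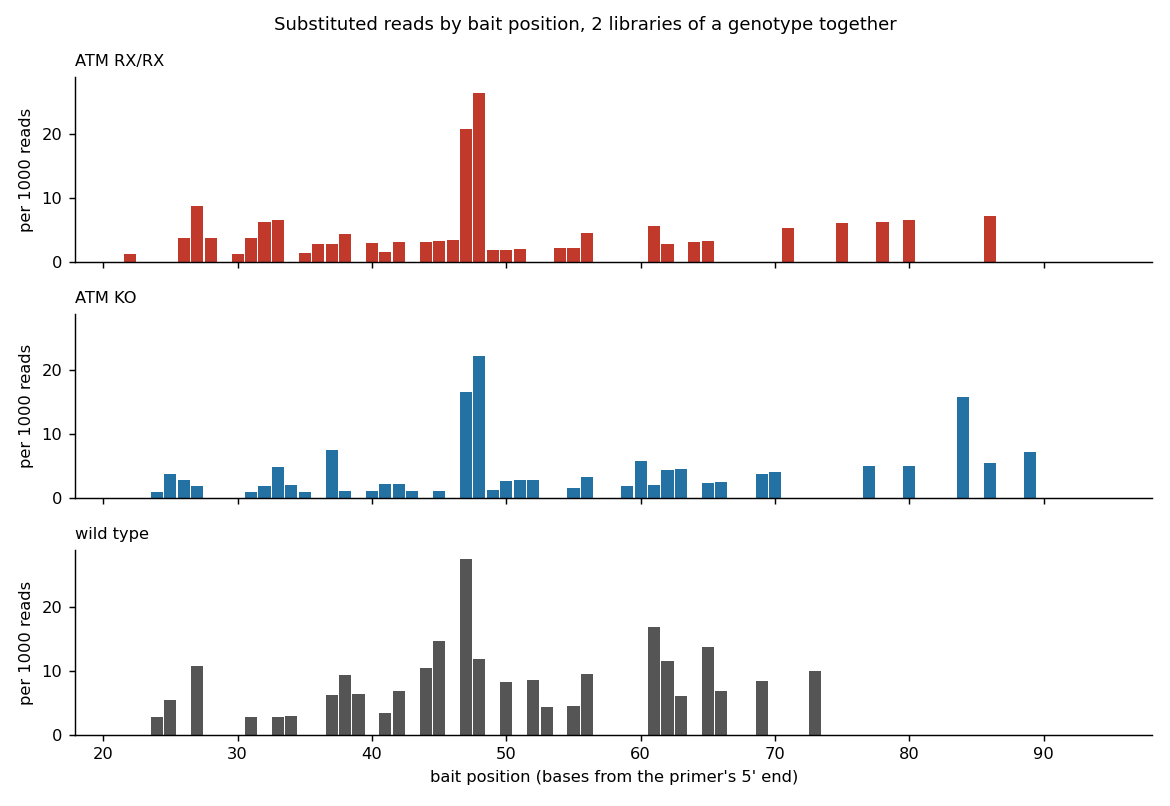
Substituted reads per 1000 reads covering each bait position, with the 2 libraries of a genotype together and positions covered by at least 100 reads shown. Positions 47 and 48 stand highest in ATM RX/RX and ATM KO, and in wild type position 47 is the highest while smaller peaks are scattered over the segment.

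By the authors' tally of bases, G and A were the most often substituted. G was changed at 35.4 and 39.3 per 10000 G bases in ATM RX/RX cells, 42.0 and 20.4 in ATM KO cells, and 63.0 and 46.1 in wild type. Both mutants lay below wild type at G without overlap (exact permutation p = 0.3333 for each). A was changed at 55.1 and 50.1 per 10000 A bases in ATM RX/RX cells, 30.6 and 38.8 in ATM KO cells, and 50.5 and 46.5 in wild type. At A, ATM RX/RX overlapped wild type (exact permutation p = 0.6667), while ATM KO was below both other genotypes (0.3333 for each).

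C was changed at 19.6 and 16.9 per 10000 C bases in ATM RX/RX cells, 26.5 and 17.2 in ATM KO cells, and 31.8 and 17.0 in wild type. T was the least changed base in ATM RX/RX, at 17.7 and 15.3 per 10000 T bases, with 26.4 and 16.4 in ATM KO and 35.5 and 17.3 in wild type. By the authors' counts, the C rates of both mutants differed from wild type by less than the wild-type spread. The recounted C rate was 14.0 and 8.69 in ATM RX/RX cells, 22.8 and 15.7 in ATM KO cells, and 35.9 and 17.1 in wild type. There ATM RX/RX lay below wild type without overlap (exact permutation p = 0.3333), and ATM KO overlapped it (0.6667). The recounted T rate was 11.7 and 0, 0 and 9.32, and 29.5 and 14.5 in the same order, with both mutants below wild type (0.3333 for each). Outside the pair, the recounted rate at A was 29.8 and 32.8 in ATM RX/RX cells, 20.6 and 15.7 in ATM KO cells, and 29.0 and 33.2 in wild type. ATM KO thus stayed below the other genotypes at A without the pair, and ATM RX/RX did not separate from wild type.

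By type of substitution, A to C (59 events), G to A (47) and A to G (38) were the most frequent in the authors' counts, and T to A (4) and T to C (5) the rarest. The order of the leading types depended on the pair. The recount held 58 A to C, 41 G to A and 37 A to G events. Outside the pair it held 41 G to A, 31 A to C, 22 C to T and 17 A to G events, so G to A came first there. The rates that follow are from the authors' counts. G to A, the change that deamination of the opposite strand's C leaves, had 14.2 and 26.2 events per 10000 G bases in ATM RX/RX cells, 31.5 and 11.8 in ATM KO cells, and 42.0 and 26.3 in wild type. C to T, the change from deamination of the read strand, had 6.02 and 2.81 per 10000 C bases in ATM RX/RX cells, 17.7 and 5.45 in ATM KO cells, and 3.54 and 17.0 in wild type. The genotypes overlapped for C to T, and for G to A ATM RX/RX fell just short of the lower wild-type library. G to T had 12.4 and 9.83 per 10000 G bases in ATM RX/RX cells, 5.25 and 5.37 in ATM KO cells, and 21.01 and 13.2 in wild type. Transitions made up 28.4% and 39.5% of substitutions in ATM RX/RX cells, 52.2% and 40.2% in ATM KO cells, and 41.5% and 47.4% in wild type.

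edgeR's quasi-likelihood test over the 12 substitution types, reads with an insertion and reads with a deletion called 0 of 14 classes in each of the 3 comparisons, 0% in either direction. Its lowest adjusted p was 0.844 for ATM RX/RX against wild type, 0.455 for ATM KO against wild type and 0.649 for ATM RX/RX against ATM KO. An unadjusted p under 0.05 was reached by 1 class, G to T in ATM KO against wild type (log2 fold change -1.71, unadjusted p = 0.0400), and by 0 classes in the other comparisons. DESeq2 also called 0 classes in each, with 0, 2 and 1 classes at an unadjusted p under 0.05 in the same order. Of the 14 classes, 10 had a negative fitted log2 fold change in ATM RX/RX against wild type (median -0.39) and 10 in ATM KO against wild type (median -0.57).

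**Figure D3:**
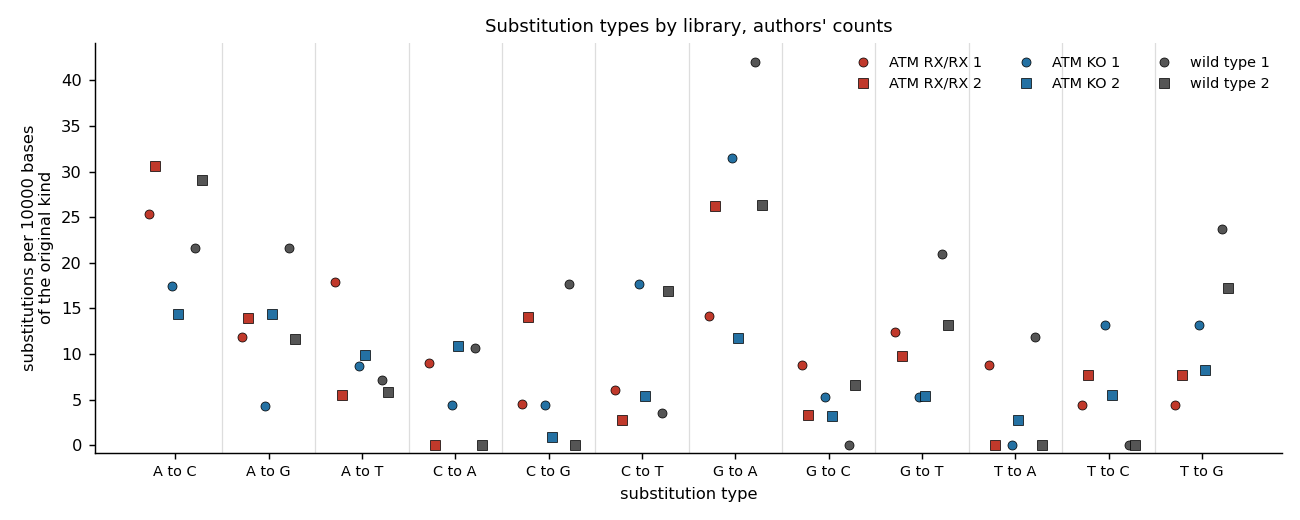
Substitutions of each type per 10000 bases of the original kind, by library (circle, replicate 1; square, replicate 2), from the authors' counts. The replicates of a genotype are often as far apart as the genotypes, and G to T is a type in which wild type (21.01 and 13.2) lies above both ATM RX/RX (12.4 and 9.83) and ATM KO (5.25 and 5.37).

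The letters AGCT, which read the same on both strands, occur at 2 places after the primer, positions 64 to 67 and 85 to 88, and in 33.2% of adjoining windows of 88 bases on mm9 chromosome 12. Its C and G bases were substituted in 2 and 0 reads of ATM RX/RX, 0 and 3 of ATM KO, and 3 and 1 of wild type. Per 10000 such bases this was 35.0 and 0 in ATM RX/RX cells, 0 and 30.7 in ATM KO cells, and 140 and 62.5 in wild type, on 160 to 977 bases a library. The other C and G bases had 23.0 and 16.5 in ATM RX/RX cells, 28.7 and 15.8 in ATM KO cells, and 42.7 and 29.1 in wild type. Wild type was highest in both classes, with 9 substitutions in all within AGCT. The median bait alignment was 57 to 62 bases long in each library, short of both sites.

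By distance from the end of the bait alignment, the changes were most frequent a few bases before that end and rare on the last bases. The alignment sets its own end and can stop short of a mismatch, so the last bases cannot show how often the junction itself was changed. The part of this in the rates below was not tested. The last 2 bait bases held 1 substitution in 4452 bases (2.25 per 10000), and those 2 to 6 bases before the end held 77 in 11130 (69.2 per 10000). Farther back, rates were 25.5 per 10000 at 7 to 9 bases, 24.6 at 10 to 19, 25.01 at 20 to 39 and 20.3 beyond that. The last 10 bases were above the rest in 6 of 6 libraries, by 17.0 per 10000 on average (exact sign-flip permutation p = 0.03125; adjusted p = 0.172). They reached 49.4 and 28.8 per 10000 in ATM RX/RX cells, 32.6 and 38.02 in ATM KO cells, and 73.0 and 36.5 in wild type. Bases that the prey alignment also covered held 25 of the 254 substitutions, 9.84% on 4.78% of the bases, and without them both mutants still lay below wild type (30.8 and 22.03 in ATM RX/RX cells, 22.01 and 21.4 in ATM KO cells, 44.6 and 33.1 in wild type).

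The reads of the genotypes also differed in kind. Plus-orientation junctions made up 42.9% and 37.7% of bait reads in ATM RX/RX cells, 38.5% and 43.9% in ATM KO cells, and 24.8% and 24.1% in wild type. The recounted rate in plus-orientation reads was 29.1 and 26.1 per 10000 in ATM RX/RX cells, 17.5 and 17.3 in ATM KO cells, and 45.3 and 27.1 in wild type. In minus-orientation reads it was 34.4 and 21.8 in ATM RX/RX cells, 27.6 and 27.96 in ATM KO cells, and 46.5 and 36.0 in wild type. Within minus-orientation reads all 4 mutant libraries thus lay below both wild-type libraries, and within plus-orientation reads this held for ATM KO, while ATM RX/RX replicate 1 exceeded wild-type replicate 2. The authors' counts gave another picture for ATM KO: its difference from wild type was -3.30 per 10000 in minus-orientation reads, with overlap (exact permutation p = 0.6667), and -27.6 in plus-orientation reads, without overlap (0.3333). For ATM RX/RX the authors' counts gave -5.20 in minus-orientation reads (exact permutation p = 0.3333) and -10.3 in plus-orientation reads (1). The rate was lower in plus reads in 5 of 6 libraries, a mean difference of -5.31 per 10000 (exact sign-flip permutation p = 0.09375, adjusted p = 0.258).

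Junctions with microhomology made up 72.0% and 72.6% of bait reads in ATM RX/RX cells, 72.2% and 66.6% in ATM KO cells, and 57.7% and 56.9% in wild type. Within libraries, substituted reads had microhomology more often than unsubstituted ones in 5 of 6 libraries, by 6.23 percentage points on average (exact sign-flip permutation p = 0.21875, adjusted p = 0.481). The part of microhomology in the difference between genotypes was not tested.

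Reads that joined the same bait to Sγ1 or Sε, the switch regions of IgG1 and IgE, were recounted in the same way. The pair at positions 47 and 48 was again above the rest, with 185 and 359 per 10000 bases in Sγ1 reads of ATM RX/RX, 227 and 199 in ATM KO, and 199 and 189 in wild type. These values stand for 6 and 8, 2 and 9, and 4 and 3 substitutions in the same order. Over the whole bait, Sγ1 reads had 47.4 and 39.5 per 10000 in ATM RX/RX cells, 17.3 and 22.5 in ATM KO cells, and 38.1 and 29.6 in wild type. Behind these rates were 41 and 25, 4 and 29, and 22 and 13 substitutions in the same order. Both ATM RX/RX libraries thus lay above both wild-type libraries, by 9.58 on average, and both ATM KO libraries below them, a mean difference of -13.9 (exact permutation p = 0.3333 for each). The recounted difference of ATM RX/RX from wild type thus had the other sign in Sγ1 reads than in Sμ reads. Outside the pair, Sγ1 reads had 42.0 and 27.9 per 10000 in ATM RX/RX cells, 9.00 and 16.1 in ATM KO cells, and 32.3 and 23.7 in wild type. There ATM KO was again below wild type without overlap (exact permutation p = 0.3333), whereas ATM RX/RX overlapped wild type (0.6667). Sε reads had 60.6 and 17.5 in ATM RX/RX cells, 44.6 and 8.02 in ATM KO cells, and 26.5 and 16.9 in wild type, with 8 and 3, 3 and 4, and 31 and 7 substitutions behind them, and the genotypes overlapped. Over the 6 libraries, Sμ reads did not differ from Sγ1 reads outside the pair beyond the spread (mean difference -0.49 per 10000, SD 11.7, higher in 3 of 6, exact sign-flip permutation p = 0.90625) or from Sε reads (-4.37, SD 20.9, higher in 4 of 6, p = 0.625 by the same exact test).

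**Figure D4:**
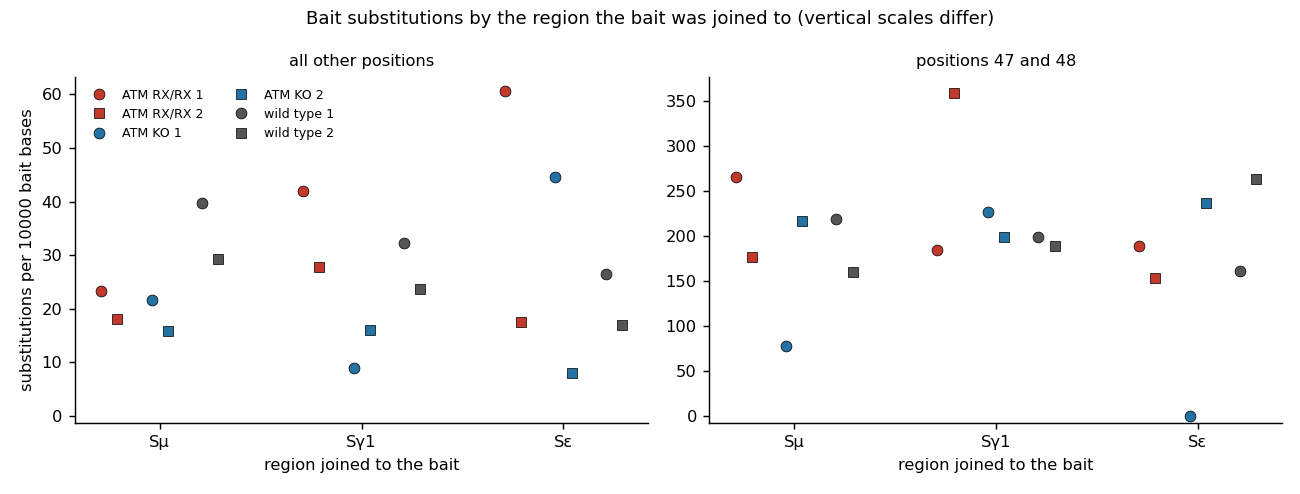
Bait substitutions per 10000 bases in reads joined within Sμ, to Sγ1 or to Sε, by library, outside the pair (left) and at positions 47 and 48 (right, larger scale). Outside the pair wild type is highest in Sμ reads but not in Sγ1 reads, where ATM RX/RX reaches 42.0, and the pair is high in all 3 regions apart from ATM KO replicate 1 in Sε reads, which had 20 bases and 0 substitutions there.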

How the data were processed

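The submitters' processing notes name Bowtie2, without a version, and mm9. Per the series' design text, the IgH segment was exchanged for 129 sequence, so the deposited coordinates of the bait lie 4348 above those of mm9 and only the mm9 match is printed. The deposited counts (substitutions, insertions and deletions per read, substitutions by base, total bait bases) were made by the authors; the rule behind an insertion is not given. Deposited values of other kinds, the alignment ends and orientations, were used as listed. The recount compared gap-free bait reads with the bait, and its substitutions and bases leave out 20 gapped reads. Its shares of reads keep these 20 with substitutions taken as 0. Among them, 7 reads with a gap after the primer counted as inserted or deleted, and 13 with a gap inside the primer as unchanged. The recount was added after seeing the data. Group means were compared by two-sided exact permutation, within-library differences by sign flips. Mutation classes were tested with edgeR 4.0.16 (quasi-likelihood, bait bases as offset, 1 common dispersion, 6 libraries) and DESeq2 1.42.0 in R 4.3.3, with Benjamini-Hochberg adjustment at 0.05; the edgeR code was checked on simulated counts. Other steps used Python 3.11.15 and SciPy 1.17.1. Positions were named as the 10 with the most substituted reads over all libraries, and every mutation class is given. The members and lists were chosen with earlier results of these data known. Of 2277 Sμ junctions, 31 have no bait mutation entry and were not analysed here. Listed reads per library numbered 137 to 875, so a count of 0 allows a share of up to 2.19% in the smallest and 0.343% in the largest. Bases recounted for all reads were 101% to 102% of the authors' totals. No bait junction was repeated within a library, and 4.69% to 9.96% of reads per library matched a junction in another library.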

Additional observations from a re-analysis of the deposited data

Results flagged for a closer look

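The sign of the difference between Sμ and Sγ1 reads of the same library differed between genotypes. In both ATM RX/RX libraries the recounted substitution rate was lower in Sμ than in Sγ1 reads, by -15.4 and -16.0 per 10000 bases, and in both wild-type libraries it was higher, by 8.11 and 4.06. The Sμ minus Sγ1 differences of the genotypes were -21.8 apart (exact permutation p = 0.3333, the smallest possible). ATM KO, with 6.26 and 0.721, also stood opposite to ATM RX/RX, -19.2 apart (exact permutation p = 0.3333). The Sγ1 reads of ATM KO replicate 1 held only 4 substitutions. Outside positions 47 and 48 the differences were -18.6 and -9.83 in ATM RX/RX and 7.46 and 5.69 in wild type, -20.8 apart (exact permutation p = 0.3333). ATM KO, with 12.6 and -0.210, did not stand opposite to ATM RX/RX there. Of 33 contrasts of this kind inspected, 3 had opposite signs, and all 3 draw on the same Sμ and Sγ1 reads. How many would have opposite signs by chance was not tested.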

How the results depend on the processing

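Every difference below is of means, in percentage points for shares and per 10000 bases for rates. None passed a test, so a turned sign is a change of value only. Reads with a bait alignment of at least 100 bases numbered 49 in ATM RX/RX, 58 in ATM KO and 11 in wild type, where none was changed. With those reads alone, the substitution rate differed by 18.6 for ATM RX/RX and 23.7 for ATM KO from wild type and by -5.05 between ATM RX/RX and ATM KO. In the same order, the share without a change differed by -9.40, -16.2 and 6.82, that with 1 change by 7.67, 9.64 and -1.96, and that with 2 or more by 1.72, 6.58 and -4.85. The insertion rate of ATM RX/RX against wild type became 1.78 and that of ATM KO 0, and the deletion differences were all 0, as they also were in plus-orientation reads. In minus-orientation reads ATM RX/RX minus ATM KO became -1.91 for substitutions, -1.56 for insertions, 0.494 for no change, -0.161 for 1 change and -0.333 for 2 or more. There the insertion rate against wild type became 0.189 for ATM RX/RX and 1.75 for ATM KO. In plus-orientation reads the share with 1 change was 1.49 above wild type in ATM RX/RX. Without reads of 5 or more changes, ATM RX/RX minus ATM KO became -0.355 for insertions. Under the 4 recounts (all bases, without the pair, without prey-covered bases, without the last 10 bases), insertions became 0 for ATM RX/RX against wild type, 0.284, 0.294, 0.297 and 0.376 for ATM KO against wild type, and -0.284, -0.294, -0.297 and -0.376 for ATM RX/RX against ATM KO. Deletions became 0.107, 0.110, 0.120 and 0.123 for ATM RX/RX against wild type, and the share with 2 or more changes -0.0786 and -0.0260 for ATM RX/RX against ATM KO in the first 2 recounts.

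Leaving out 1 library turned the sign of some values. Insertions ranged from -3.15 to 2.52 for ATM RX/RX against wild type, from -3.28 to 2.38 for ATM KO against wild type and from -0.646 to 0.909 for ATM RX/RX against ATM KO. Deletions ranged from -0.699 to 0.434, from -0.567 to 2.20 and from -2.34 to 0.434 in the same order. The share with 2 or more changes ranged from -0.225 to 0.694 for ATM RX/RX against ATM KO. The substitution rate kept its sign but ranged from -12.6 to -0.0929 for ATM RX/RX against wild type (-0.0929 without wild-type replicate 1), from -18.1 to -5.67 for ATM KO against wild type and from 2.05 to 9.10 for ATM RX/RX against ATM KO. In the same order, the share without a change ranged from 1.33 to 2.90, from 2.56 to 4.13 and from -1.97 to -0.492, and that with 1 change from -1.71 to -0.519, from -2.71 to -1.52 and from 0.513 to 1.48. The share with 2 or more ranged from -1.31 to -0.685 for ATM RX/RX against wild type and from -1.69 to -0.773 for ATM KO against wild type. Correlations of replicate deviations over 14 classes were -0.70 between ATM RX/RX and ATM KO and -0.04 between ATM RX/RX and wild type. Between ATM KO and wild type the value was -0.05. None was positive, but many classes hold few events, so whether replicate numbers pair the libraries was not settled. The replicate block left the differences in substitution rate at -6.32, -11.9 and 5.58 (smallest possible exact p = 0.5), and edgeR with the replicate block called 0 classes. With ATM RX/RX and ATM KO numbers crossed in the block it also called 0. Of 301 alternative values in all, 243 kept their sign and call. Some of these could not change, since the replicate block leaves a mean difference as it is and reduction to distinct junctions removed no read. The tally is therefore no measure of how firm the results are. Bait rates rest on 17 to 87 substitutions a library, which limits every comparison.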
